A study of Mus musculus with 6 samples.

Results

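Cytosolic ribosomal proteins are the protein parts of the ribosomes that translate nuclear-encoded mRNA, and their genes are named Rpl for the large subunit and Rps for the small subunit. Members were taken by symbol: protein-coding genes called Rpl or Rps followed by a number, together with Rplp0, Rplp1, Rplp2 and Rpsa, on array rows that name a single gene. This gave 65 of the 22180 genes measured, 41 of the large and 24 of the small subunit, after 2 pseudogenes of 67 matching symbols were left out. A gene with more than 1 row was represented by its brightest row, averaged over the 6 arrays. RefSeq lists 85 protein-coding genes of this naming, and the other 20 had no row of their own name alone.

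Every ribosome carries its subunit proteins in fixed proportion, so cells make ribosomal protein mRNAs in a coordinated way. These mRNAs are among the most abundant of growing cells. They begin with a run of pyrimidines at the transcript's 5′ end, the TOP motif, through which growth signalling by mTOR controls their translation. Loss of a single copy of several of these genes causes Diamond-Blackfan anaemia, in which heart malformations also occur. Ribosomal protein genes are further known for the many processed copies of their mRNAs that lie elsewhere in mammalian genomes.

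The study asked what loss of Hdac3, a histone deacetylase, in the second heart field does to the embryonic heart. RNA came from pooled hearts of C57BL/6 mouse embryos at embryonic day 9.5. There were 3 pools of Hdac3-flox/flox hearts, whose Hdac3 alleles are flanked by recombination sites and which carry no Cre, and 3 pools of Hdac3-flox/flox; Isl1-Cre hearts, called Hdac3-Isl1KO. Isl1-Cre acts in second heart field progenitors and their descendants, which are part of the heart's cells, and the rest of each heart keeps its alleles. As no pool carried Isl1-Cre alone, an effect of the driver and of the deletion cannot be told apart. The sources used here do not give the number of hearts in a pool or their litters, so p-values describe only the spread between pools, which may be technical. All values are log2 expression values from Affymetrix arrays, and a positive difference means a higher value in Hdac3-Isl1KO.

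The arrays had medians of 5.64 to 5.71 and correlated pairwise at 0.980 to 0.989, with Hdac3-flox/flox pool 2 the least like the others. Hdac3 was at 9.67, 9.73 and 9.64 in the 3 Hdac3-flox/flox pools and at 9.11, 9.20 and 9.31 in the 3 Hdac3-Isl1KO pools, a difference of -0.47 (limma adjusted p = 0.0636). All 6 cardiomyocyte markers were measured in every pool, with a summed level of 72.6 to 72.7 in Hdac3-flox/flox and 72.1 to 72.4 in Hdac3-Isl1KO. These sums did not overlap. Only Myl7 of the 6 was above 0, and none passed the threshold. Marker sums of some other tissues differed too, and these were higher in Hdac3-Isl1KO. The summed level of 6 measured trophoblast markers was 33.6 to 35.4 against 39.3 to 39.5. Of the 6, 3 rose past the threshold (Prl4a1, Cyp11a1 and Psg29), beside 0.23% of all genes. Hand1, the brightest of the 6 and also a cardiac factor, differed by 0.16 and did not pass. The sum of 6 hepatic or yolk sac endoderm markers was 32.7 to 34.2 against 36.8 to 37.0. Of these, 1 rose past the threshold (Fgb), beside the same 0.23%. The sum of 6 epithelial markers was 36.2 to 36.3 against 38.7 to 39.1. Primitive erythroid and macrophage sums overlapped between the groups, at 46.2 to 46.4 against 46.3 to 46.7 and at 23.4 to 24.2 against 24.2 to 24.6. The part of these tissues in the results below was not tested.

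Ribosomal protein genes were mostly measured higher in Hdac3-Isl1KO hearts, by small amounts. The difference was above 0 for 55 of 65 genes and below 0 for 10, with a median of 0.22, while 50% of all 22180 genes were above 0 and their median was 9.4e-05. After Benjamini-Hochberg adjustment over all genes, 5 members rose and 0 fell (limma, adjusted p under 0.05): Rpl9, Rps12, Rps19, Rps24 and Rps28. In the same fit 0.23% of all genes rose and 0.198% fell. At an unadjusted limma p under 0.05, 35 members were higher and 3 lower, beside 6.57% and 7.96% of all genes. In bulk tissue a larger share of cells rich in these mRNAs and more RNA per cell cannot be told apart.

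The upward shift of the family was present on each Hdac3-Isl1KO array. Taking each gene's deviation from its own mean, the median over the 65 genes was -0.12, -0.063 and -0.14 in the 3 Hdac3-flox/flox pools and 0.097, 0.096 and 0.12 in the 3 Hdac3-Isl1KO pools. The corresponding medians over all genes lay between -0.0044 and 0.010. For 35 members the 3 Hdac3-Isl1KO values all lay above the 3 Hdac3-flox/flox values, and for 3 they all lay below. Among all genes, 9.41% were separated upward and 12.4% downward.

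**Figure D1:**
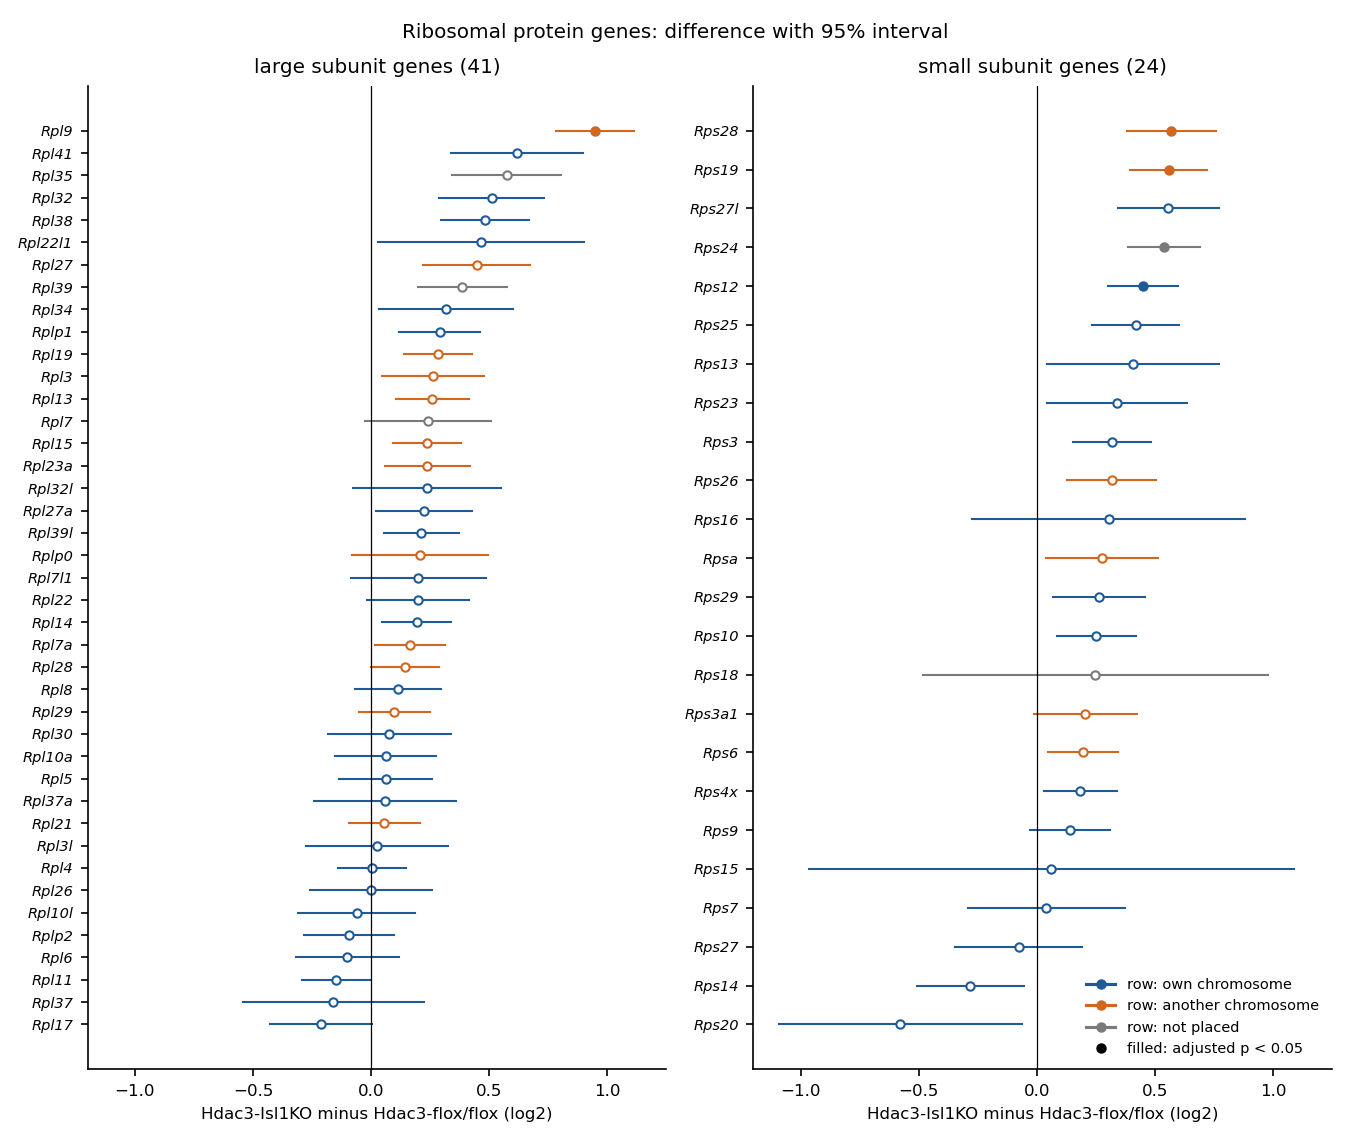
Difference (Hdac3-Isl1KO minus Hdac3-flox/flox, log2) of each of the 65 genes, large subunit on the left and small subunit on the right, with lines for the 95% interval from the limma fit on 3 against 3 arrays. Filled points passed an adjusted p of 0.05, and colours show where the gene's array row was placed by its neighbours in row order; 55 points lie above 0 and 10 below.

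Rps12, a protein of the small subunit's head, gave the tightest separation of the genes that rose. Its values were 12.05, 12.07 and 12 in the Hdac3-flox/flox pools and 12.50, 12.49 and 12.48 in the Hdac3-Isl1KO pools. The groups did not overlap and the values within each were close together. The difference was 0.45 (95% interval 0.30 to 0.60), or 1.37-fold, with a limma adjusted p of 0.0469.

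Rps24, which takes part in processing the small subunit's rRNA precursor, was at 10.13, 10.18 and 10.09 in Hdac3-flox/flox and at 10.64, 10.69 and 10.69 in Hdac3-Isl1KO. The difference was 0.54 (95% interval 0.39 to 0.69), or 1.45-fold, with a limma adjusted p of 0.0311. Rps19, the gene most often mutated in Diamond-Blackfan anaemia, was at 10.12, 10.05 and 10.14 against 10.63, 10.63 and 10.74. It rose 1.47-fold, by 0.56 (0.39 to 0.72), with a limma adjusted p of 0.0345, on a row placed on another chromosome. On its own chromosome a row differed by 0.16 and did not pass. On the main rows of both genes every Hdac3-Isl1KO pool lay above every Hdac3-flox/flox pool.

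Rps28, a small protein near the mRNA exit channel, was at 10.48, 10.37 and 10.33 in Hdac3-flox/flox and at 11.07, 10.89 and 10.94 in Hdac3-Isl1KO. The groups were apart, and the difference of 0.57 (0.38 to 0.76) passed the threshold narrowly (limma adjusted p = 0.0495). This row was placed on another chromosome, and a row on the gene's own chromosome differed by -0.078 and did not pass. Rpl9, a protein of the large subunit, had the largest difference of all members. It was at 8.87, 8.76 and 8.83 against 9.78, 9.70 and 9.83, a rise of 0.95 (0.78 to 1.11), or 1.93-fold, with a limma adjusted p of 0.00895. This row too was placed on another chromosome, and on the gene's own chromosome a row differed by -0.090 and did not pass.

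The calls depended on having all 6 pools. With Hdac3-flox/flox pool 2 or Hdac3-Isl1KO pool 2 left out Rpl9 alone among members still passed, and with any of the other 4 pools left out 0 members did. The sizes changed little: the difference of Rpl9 ranged from 0.92 to 0.98 over the 6 leave-one-out fits, that of Rps12 from 0.43 to 0.46 and that of Rps24 from 0.52 to 0.56. With a prior variance trended on the mean level 25 members rose and 0 fell, while 3.9% of all genes were called in either direction, and when only genes above the median row were tested 18 rose and 0 fell, beside 4.94%. With each array centred on its median Rps12 and Rps28 no longer passed (limma adjusted p = 0.0674 and 0.0599), and with the mean of a gene's rows Rpl9, Rps19 and Rps28 did not (0.0937, 0.0604 and 0.231).

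**Figure D2:**
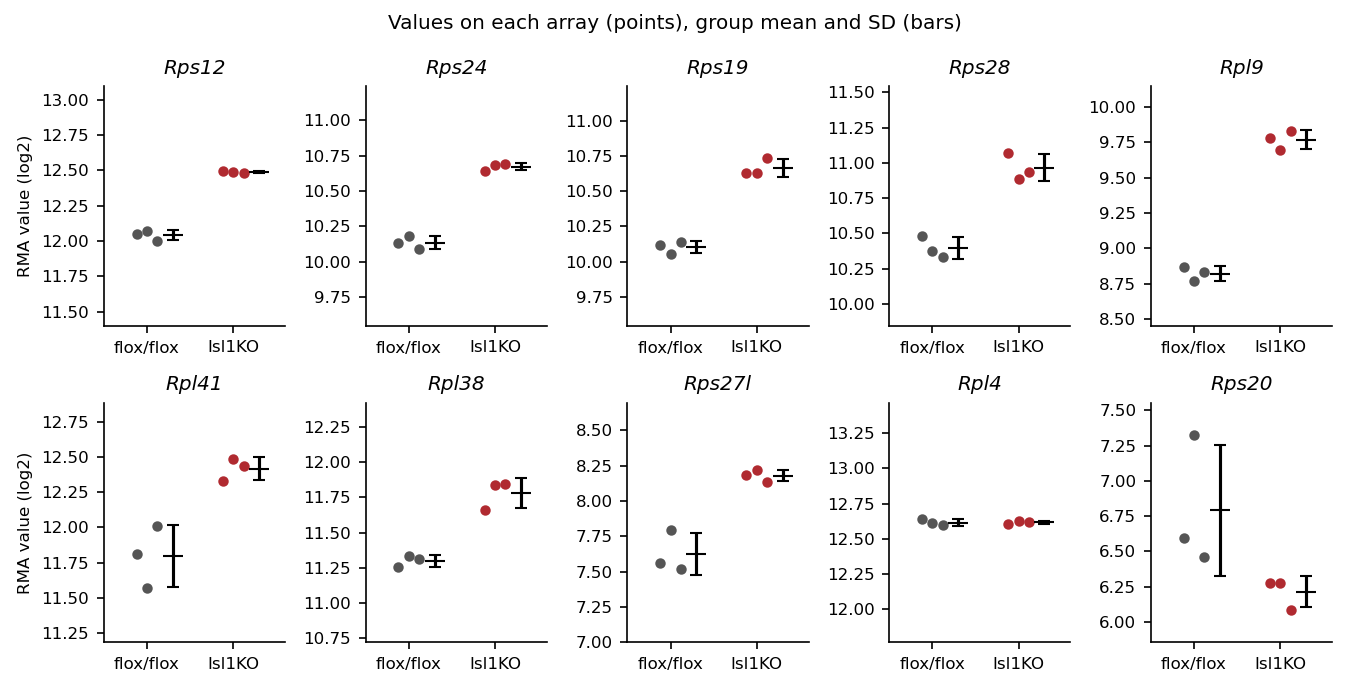
Log2 expression values of 10 members on each of the 6 arrays (points), with the group mean and SD (bars); each panel has its own axis, which does not start at 0. In all panels but Rpl4 and Rps20 the 3 Hdac3-Isl1KO points lie above the 3 Hdac3-flox/flox points, Rpl4 is level, and in Rps20 Hdac3-flox/flox pool 2 stands at 7.32, above the other 5 arrays.

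The starts of the 5 genes that rose, and of Rpl4, which was level, are shown because the TOP motif lies there. Sequences are from the RefSeq promoter table (GRCm38.p6). They run from 60 bases before to 20 bases after an annotated start, 5′ to 3′ on the gene's strand. Capitals mark the longest unbroken run of C and T in each, or the first where runs were equally long, as in Rpl9. Rps24 and Rps19 had several annotated starts, of which the first listed is shown.
Rps12: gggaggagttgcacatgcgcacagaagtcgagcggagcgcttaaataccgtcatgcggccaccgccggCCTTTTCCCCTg
Rps24: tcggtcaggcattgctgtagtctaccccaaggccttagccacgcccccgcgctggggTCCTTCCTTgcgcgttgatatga
Rps19: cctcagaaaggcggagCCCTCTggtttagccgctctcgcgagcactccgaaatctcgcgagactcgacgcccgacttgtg
Rps28: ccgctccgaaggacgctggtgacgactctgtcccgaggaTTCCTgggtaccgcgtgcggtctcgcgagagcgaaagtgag
Rpl9: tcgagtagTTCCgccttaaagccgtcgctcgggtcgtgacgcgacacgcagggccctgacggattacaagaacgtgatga
Rpl4: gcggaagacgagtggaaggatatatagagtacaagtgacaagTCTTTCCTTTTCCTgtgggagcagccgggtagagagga

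These stretches lie at chr10:23787190-23787269 (minus strand) for Rps12, chr14:24490618-24490697 (plus) for Rps24, chr7:24884532-24884611 (plus) for Rps19, chr17:33824543-33824622 (minus) for Rps28, chr5:65391412-65391491 (minus) for Rpl9 and chr9:64173327-64173406 (plus) for Rpl4. The longest run was 11 bases in Rps12, just after the annotated start, 9 in Rps24, across it, and 14 in Rpl4, just before it. It was 6 in Rps19, 5 in Rps28 and 4 in Rpl9, all upstream of the annotated start.

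Over the family, 52 of 65 members had an entry in that table, with 61 starts, and 13 had none. A run of at least 8 C or T bases on the gene's strand between 20 bases before and 30 after the start was present at 31 of 61 starts (50.8%), beside 19.0% of all 32851 starts in the table. CCGGAAG, the core of sites bound by ETS-family factors, stood on either strand, from 250 bases before to 50 after the start, at 23 of 61 starts (37.7%), beside 8.86% of all. TATAAA on the gene's strand, 40 to 15 bases before the start, was present at 1 of 61 (1.64%), beside 1.99% of all. These are counts of letters, not of bound sites.

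Both subunits showed the shift. The median was 0.20 over the 41 large subunit genes, with 34 above 0, 20 separated upward and 1 downward. It was 0.27 over the 24 small subunit genes, with 21 above 0, 15 separated upward and 2 downward. Among all genes these shares were 9.41% and 12.4%. Of the 5 genes that rose, 1 was large (Rpl9) and 4 were small subunit genes. Members share arrays and are not replicates, so no test of the subunits against each other was made.

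Among the large subunit genes that did not pass, the largest differences were those of Rpl41, Rpl35, Rpl32 and Rpl38. Rpl41, which encodes the smallest ribosomal protein, was at 11.81, 11.57 and 12.01 against 12.33, 12.49 and 12.43, a difference of 0.62 (limma adjusted p = 0.0973). Rpl38, whose loss alters the translation of Hox mRNAs and the axial skeleton in mice, was at 11.26, 11.34 and 11.31 against 11.66, 11.84 and 11.85, a difference of 0.48 (limma adjusted p = 0.0636). The groups were apart in both, with the wider spread in the Hdac3-flox/flox pools for Rpl41 and in the Hdac3-Isl1KO pools for Rpl38.

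Rpl35, which lies by the exit of the nascent peptide, differed by 0.57 and Rpl32 by 0.51 (limma adjusted p = 0.0736 and 0.0898), also with no overlap of groups. Each of these 4 passed under at least 4 of the alternative settings. The main row of Rpl35 could not be placed. Its further rows differed by 0.49 on another chromosome and by 0.10, with groups that overlapped, on its own. Rpl4, which lines the exit tunnel, was at 12.64, 12.61 and 12.60 against 12.61, 12.63 and 12.62. Its difference of 0.0019 had a 95% interval of -0.14 to 0.15, which leaves out a change of the size seen in Rps12.

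Genes of the acidic stalk and of the 5S particle had differences of both signs. Rplp0, Rplp1 and Rplp2 form the stalk that recruits the GTPases of translation, and their differences were 0.21, 0.29 and -0.095. Only Rplp1 had groups that did not overlap, and none passed (limma adjusted p = 0.494, 0.165 and 0.643). Rpl5 and Rpl11 bind 5S rRNA together and, when free of ribosomes, the p53 regulator Mdm2. Rpl5 differed by 0.061 (95% interval -0.14 to 0.26) and Rpl11 by -0.15 (-0.29 to -0.0012), and all 3 Rpl11 values in Hdac3-Isl1KO (7.26, 7.27 and 7.22) lay under those in Hdac3-flox/flox (7.43, 7.39 and 7.39).

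Of 18 genes in which mutations cause Diamond-Blackfan anaemia, 14 were measured. Their median was 0.26, with 11 above 0, and 3 rose (Rps19, Rps24 and Rps28), beside 0.23% of all genes. In the whole family of 65, to which they belong, the median was 0.22, with 55 above 0, and 5 rose. The calls of Rps19 and Rps28 come from rows placed on another chromosome, and on their own chromosome these genes differed by 0.16 and -0.078. Rpl27 differed by 0.45, Rps26 by 0.32, Rpl15 by 0.24 and Rps10 by 0.25, none of them past the threshold (limma adjusted p from 0.126 to 0.202). Of these, only the row of Rps10 lay on its own chromosome, and the others were placed on another. On their own chromosome Rpl27 differed by -0.0019 and Rps26 by -0.20, and Rpl15 had no such row.

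Negative differences were fewer and none passed. Rps20, of the small subunit's head, had the lowest, -0.58 (95% interval -1.09 to -0.062, limma adjusted p = 0.297). Its values were 6.59, 7.32 and 6.46 in Hdac3-flox/flox and 6.28, 6.28 and 6.09 in Hdac3-Isl1KO. The groups were apart, but pool 2 of Hdac3-flox/flox was far above the others, and without it the difference was -0.31.

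Rps14, the gene whose loss underlies the anaemia of the 5q- syndrome, was at 7.07, 7.31 and 7.18 against 7.04, 6.86 and 6.81, a difference of -0.28 (limma adjusted p = 0.256). Rpl17, at the exit tunnel, differed by -0.21 and its groups overlapped. Rpl37, Rpl6, Rplp2, Rps27, Rpl10l and Rpl26 made up the rest below 0, between -0.16 and -0.00072, with overlapping groups.

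Paralogs with restricted or stress-linked expression varied. Rps27l, a p53-responsive relative of Rps27, was at 7.56, 7.79 and 7.52 against 8.18, 8.22 and 8.14. The groups were apart by a difference of 0.56 (95% interval 0.34 to 0.77, limma adjusted p = 0.0636), while Rps27 itself differed by -0.075 (-0.34 to 0.19). Rpl22l1 differed by 0.47 with groups that overlapped and Rpl22 by 0.20 (limma adjusted p = 0.314 and 0.383).

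Rpl39l, of which the testis is a main site, differed by 0.21 and Rpl39 by 0.39, both with groups apart (limma adjusted p = 0.239 and 0.109). Rpl3l, the striated muscle relative of Rpl3, was at 4.79, 4.67 and 5.14 against 4.82, 4.88 and 4.96, which overlapped, and differed by 0.024 (-0.28 to 0.32). Rpl7l1 differed by 0.20, Rpl32l by 0.24 and the testis gene Rpl10l by -0.061, none with groups apart. The rows of Rpl32l, Rpl10l and Rpl3l were among the 5 dimmest of the family, where array values respond least to RNA.

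The upward shift was most uniform among bright rows. All 31 members whose row averaged above 10 had a difference above 0, with a median of 0.26, 25 of them separated upward and 4 called. The 733 other genes in that range had a median of -0.019, with 321 above 0 and 142 separated upward. Of these, 4 were called up and 6 down. Between 6 and 8 the 17 members were divided, with 9 above 0 and 8 below and a median of 0.040, beside -0.030 for 6414 other genes. Below 6 the 9 members had a median of 0.21, beside 0.036 for other genes. Between 8 and 10 the 8 members had 0.28, beside -0.028. A row's brightness depends on its probes as well as on the RNA, so these ranges do not rank the genes by expression.

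**Figure D3:**
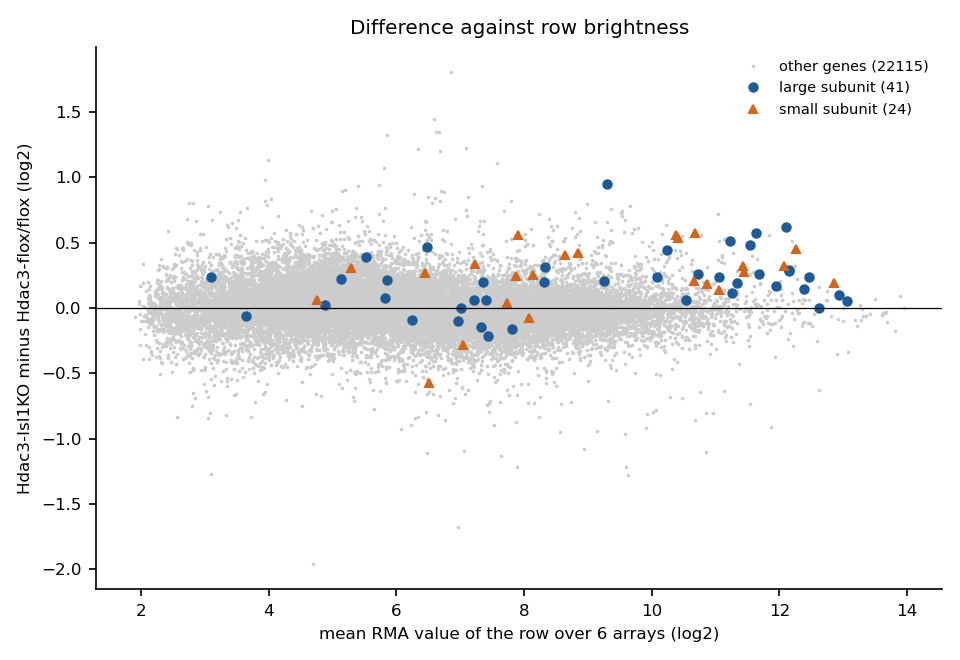
Difference (Hdac3-Isl1KO minus Hdac3-flox/flox, log2) against the mean value of the row over 6 arrays (log2), for 41 large subunit genes (circles), 24 small subunit genes (triangles) and 22115 other genes (grey). All 31 members to the right of 10 lie above 0, whereas members between 6 and 8 lie on both sides.

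The brightest row of each subunit had values close together within the groups. Rps6, the substrate of the S6 kinases, was at 12.75, 12.78 and 12.72 against 12.98, 12.94 and 12.92, a difference of 0.19 (0.046 to 0.34, limma adjusted p = 0.244). Rpl21 was at 13.00, 13.08 and 13.01 against 13.06, 13.08 and 13.11, a difference of 0.055 (-0.095 to 0.20). The groups of Rps6 were apart and those of Rpl21 overlapped. Rpl29 and Rpl15, the next in brightness with Rpl4, differed by 0.099 and 0.24. Of these rows only that of Rpl4 lay on its own chromosome, and the others were placed on another. On their own chromosome Rpl21 differed by -0.030 and Rpl29 by 0.34, and Rps6 and Rpl15 had no such row.

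Many member rows were not placed on the chromosome of their gene. The platform numbers its rows along the chromosomes, so each row was placed by the genes named on the 5 rows to either side, where at least 80% of these shared a chromosome. Of the other rows that could be placed, 99.6% lay on the chromosome of their named gene. Of 99 member rows that could be placed, 64 lay on the gene's own chromosome and 35 on another, and 7 could not be placed. Whether a row placed elsewhere reads the gene's own mRNA, a copy of it at that place or both was not tested.

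Every row placed elsewhere was measured higher in Hdac3-Isl1KO, and rows on the gene's own chromosome lay on both sides of 0. Counting rows of identical values once, the 28 placed on another chromosome had a median difference of 0.27, with 28 above 0 and 23 separated upward. The 64 on the gene's own chromosome had a median of 0.11, with 44 above 0 and 20 below, 20 separated upward and 5 downward. Over all 23521 single-gene rows, 9.34% were separated upward and 12.1% downward. The rows elsewhere were also brighter, with a median level of 11.54 against 7.34. Of the 5 genes that rose, the row of Rps12 lay on its own chromosome, those of Rpl9, Rps19 and Rps28 lay elsewhere, and that of Rps24 was not placed.

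With the brightest row on the gene's own chromosome in place of the brightest row, a choice made after the data were seen, 60 members remained. Their median was 0.079, with 40 above 0 and 20 below, and 49.8% of all genes in that fit were above 0. By limma 0 members were called, beside 0.321% of all genes. At an unadjusted limma p under 0.05, 20 were higher and 4 lower, beside 6.35% and 8.03% of all genes in that fit. Groups were separated upward in 19 and downward in 5, beside 9.2% and 12.5%. The sign turned from above to below 0 in 10 members. Among the 12 members whose main row was on the own chromosome and averaged above 10, 12 were above 0 with a median of 0.24 and 9 were separated upward. Own-chromosome rows of Rpl29 and Rpl3 also averaged above 10 but were not their main rows. They differed by 0.34 and -0.12.

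In 19 genes rows of both kinds existed, and the brightest of each kind were set side by side. The difference of the row elsewhere was above that of the own row in 16 of 19, with medians of 0.28 and 0.024, and the row elsewhere was the brighter in 15. Rpl9 had a difference of 0.95 on a row placed on chromosome 13 and of -0.090 on its own chromosome 5, where values of 6.69, 7.12 and 7.03 overlapped those of 6.96, 6.78 and 6.83. Rps28 had 0.57 on a row placed on chromosome 5 and -0.078 on its own chromosome 17. The call of each of these genes therefore belongs to a row that was not placed on the gene's own chromosome.

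Rps19 differed by 0.16 on its own chromosome 7 and Rps26 by -0.20 on chromosome 10, against 0.56 and 0.32 elsewhere. Rpl3 differed by -0.12 on its brighter row on its own chromosome 15, and by 0.26 on a row placed on X. A dimmer row of Rpl3 on chromosome 15 differed by 0.46, with groups that overlapped. Between the brightest rows of each kind the exceptions were Rplp0, Rpl41 and Rpl29, where the own row had the larger difference. In Rpl29 it was 0.34 on the own row against 0.099.

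**Figure D4:**
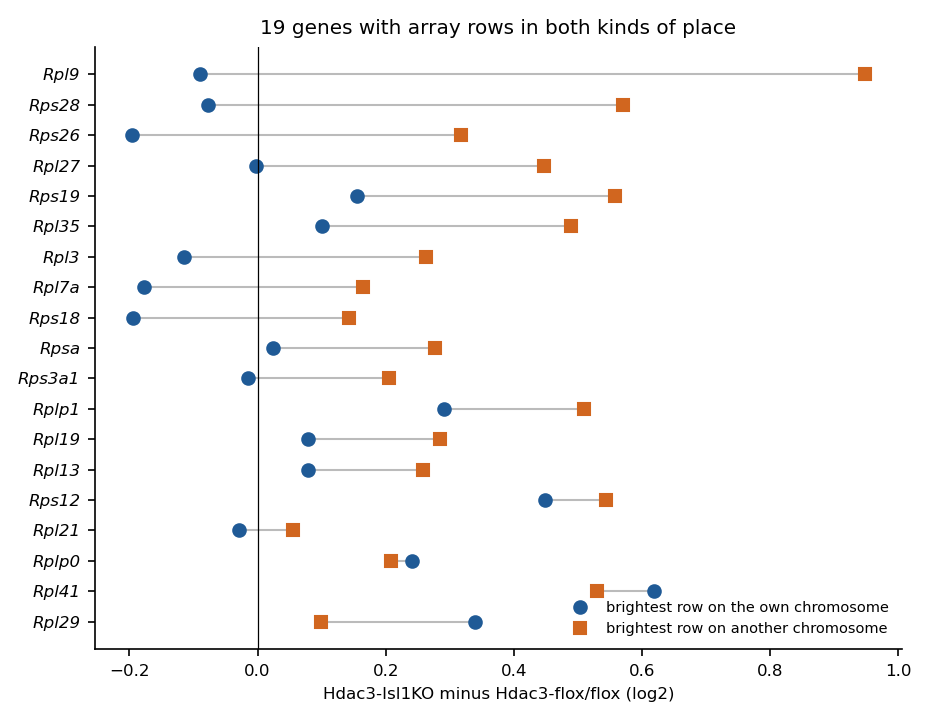
Difference (Hdac3-Isl1KO minus Hdac3-flox/flox, log2) of the brightest row placed on the gene's own chromosome (circles) and of the brightest row placed on another (squares), for the 19 genes that have both. The squares are all above 0 and lie to the right of the circles in 16 genes.

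The rows of Rpl41, Rps12 and Rps24 pointed the same way wherever they were placed. Rpl41 had 5 rows with differences of 0.62, 0.53, 0.80, 0.75 and 0.45, of which the first and the last lay on its own chromosome. Rps12 had 8 rows, 6 of them with identical values and counted once, with differences of 0.45, 0.54 and 0.48. Rps24 had 3 rows with 0.54, 0.51 and 0.48, the last on its own chromosome and not past the threshold (limma adjusted p = 0.108 over all rows). Groups were apart on every distinct row of these 3 genes.

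Main rows had larger differences than the next brightest distinct row of the same gene in most cases. Of 24 genes with more than 1 distinct row, the main row had a larger difference than the next row in 15. In 9 the main and the next row had opposite signs. In most of the 15 the next row lay on the gene's own chromosome and the main row did not. Brightness and placement therefore cannot be told apart in this comparison. The 34 distinct further rows had a median of 0.14, with 24 above 0 and 10 below, and 4 were called upward in a limma fit over all 23521 single-gene rows, of which 0.442% were called. In 13 genes all rows were above 0, in 11 they lay on both sides, and in 0 all were below. Rps20 was the clearest case of discord on the own chromosome, with -0.58 on its main row and 0.14 on the other.

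Small nucleolar RNA genes inside ribosomal protein genes were measured lower in Hdac3-Isl1KO, unlike most main rows of their hosts. These RNAs guide rRNA modification and are released from introns of the host transcript. Annotated inside members were 44 such genes in 22 hosts, of which 13 in 12 hosts were measured. All 13 had a difference below 0 and below that of the host's main row. The medians were -0.63 for the RNAs and 0.26 for these host rows over the same pairs. Several of these host rows were placed on another chromosome. In the 11 pairs with a host row on its own chromosome, the median of such rows was 0.0019. By limma 3 fell (adjusted p under 0.05) and 0 rose, beside 0.198% and 0.23% of all genes.

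Snora33, inside Rps12, fell from 13.04, 12.97 and 12.81 in Hdac3-flox/flox to 12.26, 12.42 and 12.27 in Hdac3-Isl1KO, a difference of -0.63 (limma adjusted p = 0.0496). Its host rose by 0.45 on a row placed on its own chromosome, and neither pair of groups overlapped. Snord42b, inside Rpl23a, fell by 0.92 (limma adjusted p = 0.0144) and Snord58b, inside Rpl17, by 1.08 (limma adjusted p = 0.0431). Their hosts differed by 0.24, on a row placed on another chromosome, and by -0.21.

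Snord16a inside Rpl4 differed by -0.80 with its host at 0.0019, Snord15a inside Rps3 by -0.71 with its host at 0.32, and Snord73a inside Rps3a1 by -0.95 with its host at 0.21 (limma adjusted p = 0.0541, 0.0973 and 0.0508). The row of Rps3a1 was placed on another chromosome, and on its own chromosome the gene differed by -0.014. The order held on rows placed on the host's own chromosome: in all 11 pairs with such a row the RNA lay below the brightest of them, while the median over these host rows was 0.0019.

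**Figure D5:**
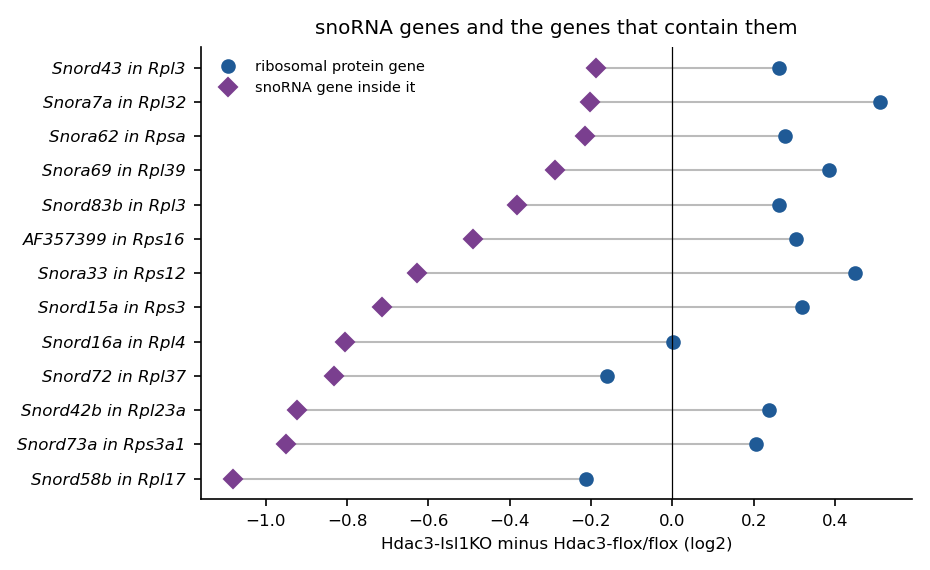
Difference (Hdac3-Isl1KO minus Hdac3-flox/flox, log2) of 13 measured small nucleolar RNA genes (diamonds) and of the ribosomal protein gene that contains each (circles). Circles show the host's main row, which for some hosts was placed on another chromosome or not placed. Every diamond lies below 0 and to the left of its circle, and 11 of 13 circles lie above 0.

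Genes that build ribosomes, and other mRNAs that carry a TOP motif, were also mostly above 0, by small amounts. Of 40 listed biogenesis factors, 38 were measured, 0 were called by limma and 29 were above 0, with a median of 0.082. At an unadjusted limma p under 0.05, 6 were higher and 0 lower, beside 6.57% and 7.96% of all genes. Polr1d, a subunit shared by RNA polymerases I and III, was at 8.05, 8.12 and 8.28 against 8.61, 8.56 and 8.75, a difference of 0.49 with groups apart (limma adjusted p = 0.0896). Nop10, of the H/ACA particle, differed by 0.29, Rrp12 by 0.28 and Nop58, of the C/D particle, by 0.18.

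The list of translation factors and other genes with TOP mRNAs held 17 symbols, of which Rack1 and Gnb2l1 name the same gene. Of these symbols 14 were measured, 0 were called by limma and 12 were above 0, with a median of 0.10. On own-chromosome rows the medians were 0.070 for biogenesis factors, 0.10 for these genes and 0.079 for ribosomal protein genes. At an unadjusted limma p under 0.05, 3 were higher and 0 lower, beside the same 6.57% and 7.96% of all genes: the elongation factor subunit Eef1d (0.24) and the initiation factor subunits Eif3e (0.31) and Eif3h (0.21). Naca, of the nascent chain complex, came next at 0.13. Fau, which encodes the small subunit protein S30 fused to a ubiquitin-like domain and falls outside the symbol rule, was at 10.80, 11.04 and 11.03 against 11.19, 11.38 and 11.32. Its groups were apart by 0.34 (0.12 to 0.57, limma adjusted p = 0.194).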

How the data were processed

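The authors deposited log2 expression values of 6 arrays, made with oligo and RMA per the submitters' processing notes (background correction, quantile normalization and a summary over the probes of each row). Per the labels' protocols, cDNA was made with an Affymetrix whole-transcript kit. The sources used here give neither versions nor the array annotation's build, and RMA understates changes of dim rows. Of 41345 rows, 23521 name 1 gene. All other rows were outside the comparison. Gene types, spans and promoters come from RefSeq (GRCm38.p6), to which 23328 rows were matched by gene number.

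The test was limma's (version 3.58.1, R 4.3.3; two-sided, constant prior, 6.92 degrees of freedom with it), and p-values were adjusted by Benjamini and Hochberg's method over the 22180 genes, with 0.05 as the threshold. No filter was applied, so dim rows cannot be told from background. Errors are 95% intervals from that fit or SDs over 3 arrays. The steps were tested on simulated data. No batch or scan date was used here, and only 3 arrays a group limit the precision.

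The genes named are Hdac3, members past the threshold, the 8 largest differences each way, the 5 brightest and 5 dimmest rows, members with several rows, paralogs with their parents, stalk, 5S and anaemia genes, hosts of small nucleolar RNA genes, and the biogenesis and TOP genes with the smallest p. Members and lists were chosen with earlier results of these data known. Same-numbered pools did not deviate together (correlations of -0.013, -0.086 and 0.040), so replicate numbers were not taken to pair them. Alternatives were array weights, centring, quantile normalization, filters on dim rows, the mean of a gene's rows, protein-coding genes only, trended priors, a replicate block, leaving out each pool and, added after the data were seen, rows on the gene's own chromosome. Plots used Python 3.11.15 and matplotlib 3.10.9.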

Additional observations from a re-analysis of the deposited data

How the results depend on the processing

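The count of all genes called was 95 and moved to 243 with array weights, 235 above the 25th percentile row, 617 above the median row, 149 after quantile normalization, 866 with either trended prior, and 2 to 25 with 1 pool left out. The count of ribosomal protein genes called, always upward, was 5 and moved to 10, 8 and 18 under the first 3 of these settings, to 25 with either trended prior, to 3 with centred arrays or the mean of a gene's rows, to 0 on own-chromosome rows, and to 0 to 1 with 1 pool left out. With the replicate block, 0 genes and 0 members were called. On own-chromosome rows the median was 0.079 (large subunit 0.076, small subunit 0.16) and 24 members had groups apart, 19 upward and 5 downward (9.2% and 12.5% of all genes in that fit). The small subunit median was 0.22 with the mean of rows. With 1 pool left out the median of large subunit genes was 0.16 to 0.20, of small subunit genes 0.22 to 0.31 and of dimmer rows 0.11 to 0.18. Biogenesis factors called numbered 1 with array weights and 2 above the median row or with either trended prior, and other TOP genes called numbered 2 with either trended prior. Hdac3 passed with array weights (-0.46, adjusted p = 0.0419), above the 25th percentile row (0.0335), above the median row (0.0109) and with the trended priors (0.00111 and 0.00108, robust), at a difference of -0.47. On own-chromosome rows the sign turned in 10 members, among them Rpl9 (-0.090) and Rps28 (-0.078). With 1 pool left out it turned in 10 members whose differences were at most 0.076 in size, among them Rps27 without Hdac3-flox/flox pool 3 (0.0039, range -0.16 to 0.0039). The causes were not tested. With 3 arrays a group and no detection calls, small differences of dim rows could not be resolved.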

Other observations

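Rows that name several genes were outside the comparison, and 57 of them include a ribosomal protein gene symbol. Their median difference was 0.15, with 36 of 57 above 0, and they ranged from -0.99 to 0.79. Groups were apart upward on 28 rows and downward on 15, beside 9.41% and 12.4% of all genes in the comparison. Of the 20 protein-coding members of the family without a row of their own, 13 appear on such rows.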
